A study of Homo sapiens with 6 samples.

Results

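The Rbfox proteins are a family of RNA-binding splicing regulators encoded by RBFOX1, RBFOX2 and RBFOX3. Each carries a single RNA recognition motif that binds the sequence GCAUG, mostly in introns, and binding downstream of an alternative exon tends to favour its inclusion. RBFOX1 and RBFOX3 are best known from neurons, where the RBFOX3 protein is the marker NeuN, whereas RBFOX2 is also made in many other tissues. Rbfox proteins act within LASR, a large assembly of other splicing factors, and are known to regulate the splicing of their own and each other's transcripts. The clusters described here are the places in the introns of these 3 genes where RNA stayed protected from nuclease in purified complexes of Rbfox1 with LASR.

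Members were chosen by name: every cluster whose gene field was RBFOX1, RBFOX2 or RBFOX3 was taken, with repeated rows dropped. They made up 233 of 188027 clusters in the F125A list (0.124%) and 431 of 366429 clusters in the WT list (0.118%), in 3 of the 11805 genes named alone in either list. RBFOX2 held 221 of the 233 F125A clusters and 407 of the 431 WT clusters. RBFOX3 had 9 F125A and 20 WT clusters, and RBFOX1 had 3 F125A and 4 WT clusters. No cluster named a family gene together with another gene.

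The F125A group had 2 libraries from cells expressing FLAG-Rbfox1(F125A), in which a phenylalanine of the RNA recognition motif is replaced by alanine, a change used to weaken recognition of GCAUG. The WT group had 3 libraries from cells expressing FLAG-Rbfox1(WT), and 1 control library, not analysed here, came from cells without a transgene. Both groups and the control share 1 parent, HEK293 Flp-In Rbfox2 KO#7, a human embryonic kidney line that takes up transgenes at a fixed site and is labelled as an Rbfox2 knockout, so everything rests on that line. Its identity was not checked by marker genes, since intron positions give no expression levels. Each Rbfox1 group was represented by a single list of positions without read counts or scores. Hence no value has a replicate error, read depth is unknown, the difference between the proteins was not tested, and the intervals given are exact binomial 95% intervals that cover counting error only. The number of clusters in a gene also depends on how much of its unspliced RNA the cells held, which these lists do not measure, and in such bulk samples fewer cells with an RNA and less of it per cell cannot be told apart.

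RBFOX2, whose knockout defines the parent line, was among the genes with the most clusters. It spans 290 kb of the minus strand of chromosome 22, from 35738736 to 36028824 on hg38. With 221 F125A clusters it ranked at place 32 of 11805 genes, and with 407 WT clusters at place 42. Per length this was 76.2 F125A and 140.3 WT clusters per 100 kb of gene. Among the 497 genes in the lists whose length was within 1.25-fold of that of RBFOX2, the medians were 8.32 F125A and 21.8 WT clusters per 100 kb, and RBFOX2 was denser than 98.8% of them in each list. The knockout was shared by both groups and no line with intact RBFOX2 was measured, so these clusters do not check it.

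RBFOX3 and RBFOX1 had far fewer clusters per length than RBFOX2, and RBFOX3 lay in the middle range of genes of its size. RBFOX3 spans 576 kb of the minus strand of chromosome 17 (79089345 to 79665571) and had 1.56 F125A and 3.47 WT clusters per 100 kb. The medians over 198 genes of similar length were 2.80 F125A and 9.15 WT clusters per 100 kb, and RBFOX3 was denser than 42.9% of these genes in the F125A list and 33.3% in the WT list. RBFOX1 spans 2474 kb of the plus strand of chromosome 16 (5239721 to 7713340), the longest annotated protein-coding gene of the RefSeq table used, and had 0.121 F125A and 0.162 WT clusters per 100 kb. Only 8 genes in the lists, RBFOX1 included, were within 1.25-fold of its length, with medians of 0.351 F125A and 0.733 WT clusters per 100 kb. RBFOX1 was denser than 12.5% of these in the F125A list and than 0% in the WT list. Of the 66 genes in the lists that were at least 1 Mb long, 24, RBFOX1 included, had 7 or fewer clusters in both lists together, and the median was 6.5 F125A and 21.5 WT clusters. RBFOX2 was thus the densest of the 3 genes in both lists and RBFOX1 the sparsest.

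**Figure D1:**
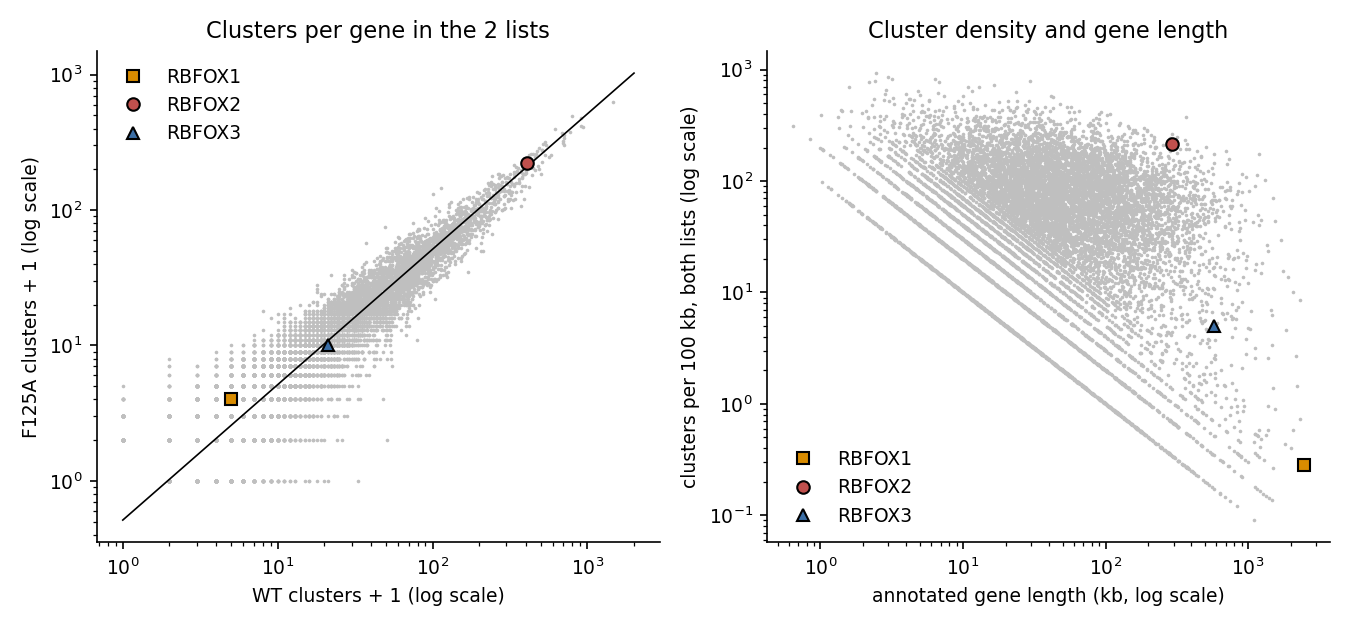
The left plot shows, for each gene, F125A clusters + 1 (y axis) against WT clusters + 1 (x axis), with a line at the ratio of the list totals; the right plot shows clusters per 100 kb of gene in both lists together against annotated gene length, all axes on log scales. Grey points are genes and the 3 marked points are RBFOX1, RBFOX2 and RBFOX3: RBFOX2 and RBFOX3 lie near the line, and RBFOX2 stands near the top of the genes of its length whereas RBFOX1 is the lowest of the 3.

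F125A and WT recovered RBFOX2 in nearly the proportion of the whole lists. Over all genes there were 1.95 WT clusters for each F125A cluster, in RBFOX2 there were 1.84 and in RBFOX3 2.22. The log2 ratio of F125A to WT clusters, with 1 added to each count and corrected for the sizes of the lists, was 0.08 for RBFOX2 (interval -0.16 to 0.32). The intervals of these ratios were taken from the counts without the added 1. For RBFOX3 it was -0.11 (interval -1.51 to 1.01), a value so loosely fixed by 29 clusters that it turned to 0.13 with 5 in place of 1 added. RBFOX1, with 7 clusters, was below the minimum of 20 set for this ratio, and its F125A share of 42.9% had an interval of 9.90 to 81.6%. Of the 5626 genes that reached 20 clusters when the lists were added up, 1.99% lay 2-fold or more toward F125A and 2.51% lay 2-fold or more toward WT. Neither RBFOX2 nor RBFOX3 was among them, that is 0 of 2 members measured. RBFOX2 lay at percentile 53.9 and RBFOX3 at percentile 37.2 of all these ratios, whose median was 0.04.

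Set beside genes of like length, whose medians lay toward WT, both genes stood further toward F125A. The 281 genes of 273 to 405 kb in the same length class as RBFOX2 had a median log2 ratio of -0.31, and RBFOX2 lay above it by 0.40, at percentile 89.7 of the class. The 282 genes of 407 to 2299 kb in the class of RBFOX3 had a median of -0.42, and RBFOX3 lay above it by 0.31, at percentile 81.2. The counting interval of RBFOX2 did not reach the median of its class, while that of RBFOX3 did. These intervals treat clusters as independent and leave out the spread between genes, so a departure from the class was not tested.

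Clusters of RBFOX2 were spread over almost the whole gene in both lists. The first lay 0.578 kb from the annotated gene start in the F125A list and 0.606 kb in the WT list, and the last lay 7.49 and 7.51 kb before the annotated end in the F125A and WT lists. In steps of 10 kb from the start, all 29 windows held clusters of both lists, with 1 to 19 F125A clusters and a median of 7, and 3 to 28 WT clusters and a median of 13. No window held more F125A than WT clusters. The window from 220 to 230 kb was the fullest of the F125A list, with 19 F125A and 27 WT clusters, and the window from 120 to 130 kb the fullest of the WT list, with 17 F125A and 28 WT clusters. Both lists thinned out between 70 and 90 kb, where the 2 windows held 2 and 4 F125A clusters and 4 and 6 WT clusters. The window from 200 to 210 kb had the lowest share of F125A of the 29 windows, with 1 F125A and 10 WT clusters. It was picked after the counts were seen, and a departure from the list totals was not tested there. Across the 29 windows the counts of the lists had a Pearson correlation of 0.84 and a Spearman correlation of 0.82, given as a description, since the windows share a transcript, the libraries and the cells.

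**Figure D2:**
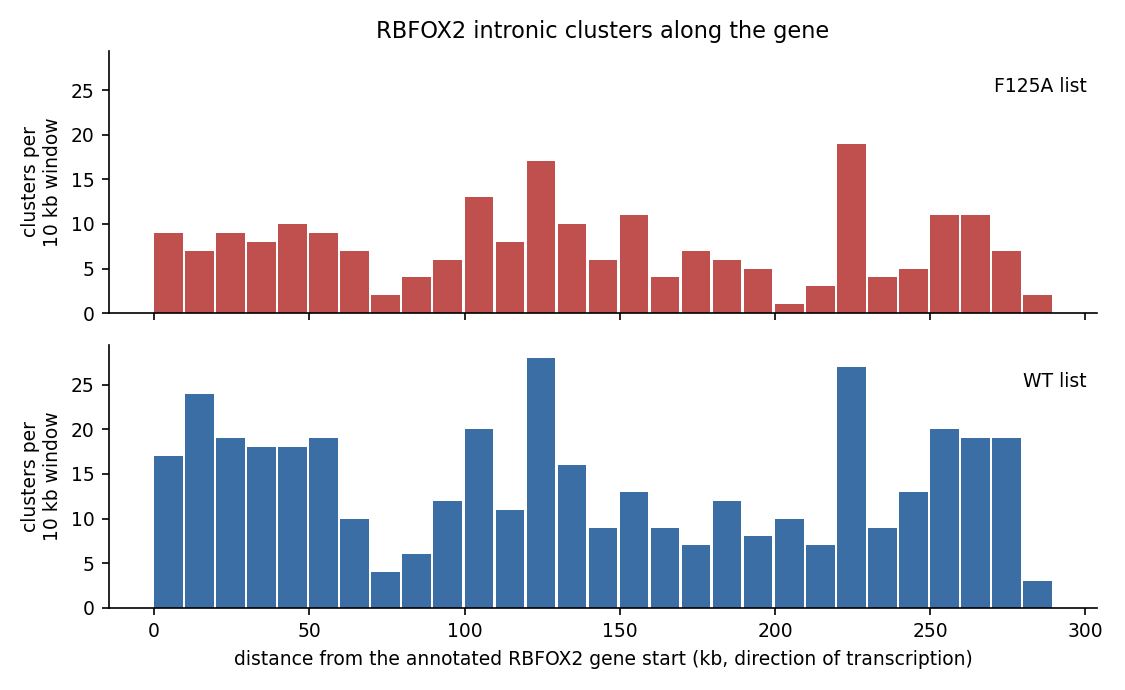
Bars give the number of RBFOX2 clusters in each 10 kb window (y axis) by distance from the annotated gene start in kb in the direction of transcription (x axis), with the F125A list above and the WT list below. Both lists have tall bars at 120 to 130 kb and 220 to 230 kb and low bars between 70 and 90 kb, and the lowest F125A bar, of 1 cluster, stands at 200 to 210 kb.

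In 10 equal segments of the gene, the WT list had its largest count at the start and the F125A list in the middle. Segment 1 of RBFOX2 held 25 F125A clusters (11.3%, interval 7.46 to 16.2%) and 59 WT clusters (14.5%, interval 11.2 to 18.3%). Segment 5 held 36 F125A and 57 WT clusters, and segment 3 was the poorest, with 13 F125A and 19 WT clusters. The F125A share of the clusters of a segment ranged from 29.8% in segment 1 to 40.6% in segment 3, which amounts to 2.36 and 1.46 WT clusters per F125A cluster. The intervals of all 10 segments took in the 33.9% that F125A clusters made up of all clusters, so at these counts a departure from the list totals was not detectable in any segment.

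Most RBFOX2 places of the F125A list were in the WT list too. A cluster was counted as having a partner where it shared 1 nt or more with a cluster of the other list and the strand matched. This held for 207 of the 221 F125A clusters, or 93.7% (interval 89.6 to 96.5%), against 85.5% over all F125A clusters. It held for 214 of the 407 WT clusters, or 52.6% (interval 47.6 to 57.5%), against 45.2% over all WT clusters. The shares were also set beside those of genes as densely covered by the other list. Among 200 genes with at least 50 F125A clusters and a WT cluster density within 1.25-fold of that of RBFOX2, the median F125A share was 88.9% with quartiles of 84.9 and 92.1%, and RBFOX2 lay at percentile 85.5. Among 277 genes with at least 50 WT clusters and an F125A density as close, the median WT share was 53.9% with quartiles of 50 and 58%, and RBFOX2 lay at percentile 39.7. RBFOX2 therefore stood toward the upper end for F125A clusters and within the middle range for WT clusters.

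Overlapping RBFOX2 clusters had centres close together, but their edges often differed. The 229 overlapping combinations of an F125A and a WT cluster shared a median of 57 nt, and their centres were a median of 6.5 nt apart. In 105 of them both edges were within 10 nt, and in 4 the start and end were identical, among them the 120 nt cluster at 35777741 to 35777860. In 169 the match was 1 to 1, while 20 F125A clusters lay over more than 1 WT cluster and 15 WT clusters over more than 1 F125A cluster. By nucleotides, 82.2% of the F125A coverage of 15841 nt lay in WT clusters, and 47.6% of the WT coverage of 27342 nt lay in F125A clusters. The widest overlap was 152 nt, between the F125A cluster at 35889409 to 35889616, the longest RBFOX2 cluster of either list at 208 nt, and the WT cluster at 35889456 to 35889607. It was followed by 132 nt shared by the F125A cluster at 35746522 to 35746702 and the WT cluster at 35746531 to 35746662 near the end of the gene. Next came 131 nt shared by the F125A cluster at 35750049 to 35750193 with the WT cluster at 35750059 to 35750189, and 124 nt shared by the F125A cluster at 35766925 to 35767048 with the WT cluster at 35766910 to 35767049. The longest WT cluster, of 153 nt, lay at 35767128 to 35767280.

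RBFOX2 clusters without a partner had lower median lengths than those with one. Lengths had a median of 65 nt for F125A clusters (quartiles 53 and 82 nt, range 30 to 208 nt) and 63 nt for WT clusters (quartiles 49 and 81 nt, range 23 to 153 nt), against 64 and 60 nt over the whole F125A and WT lists. WT clusters that overlapped no F125A cluster had a median of 57 nt and those with a partner 70 nt, the same order as over the whole WT list, where the medians were 57 and 63 nt. F125A clusters without a partner had a median of 56.5 nt and those with one 66 nt, whereas over the whole F125A list the clusters without a partner were the longer, at 68 nt against 63 nt. Only 14 RBFOX2 clusters stand behind the first of these F125A values, and 3 of them were longer than 100 nt, with 133 nt the longest.

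**Figure D3:**
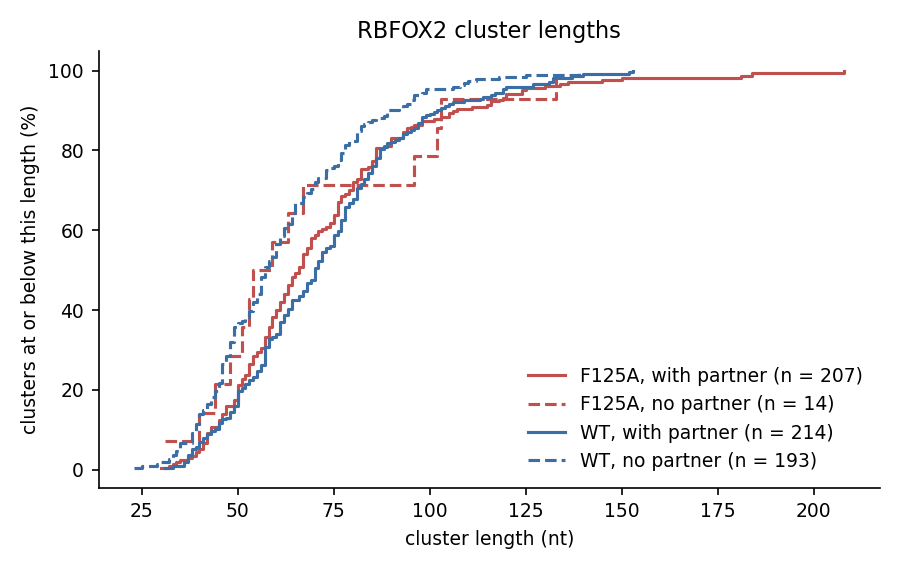
Each line gives the percentage of RBFOX2 clusters (y axis) at or below a length in nt (x axis), for F125A clusters in red and WT clusters in blue, solid with a partner in the other list and dashed without. The dashed lines of clusters without a partner lie to the left of the solid lines at the middle of the scale, where the median lengths are 56.5 nt (F125A) and 57 nt (WT) without a partner and 66 and 70 nt with one.

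The distance from an RBFOX2 cluster without a partner to the nearest cluster of the other list varied widely. These distances were not set beside those of other positions in the gene, and they depend on how dense the other list is. The 14 F125A clusters without a WT partner lay in 8 of the 10 segments, a median of 201.5 nt from the nearest WT cluster, and 11 of them were closer than 500 nt. The most distant, at 35947961 to 35948019, was 2009 nt from any WT cluster. The 193 WT clusters without an F125A partner lay in all 10 segments, a median of 413 nt from the nearest F125A cluster and at most 4135 nt. Of these, 109 were closer than 500 nt and 39 were farther than 1000 nt. Neighbouring clusters of the same list were a median of 682.5 nt apart for F125A and 305 nt for WT. Some touched without a gap, 15 of 220 neighbouring F125A clusters (6.82%) and 34 of 406 WT ones (8.37%), close to the 5.58% and 6.03% over all genes in the F125A and WT lists.

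RBFOX3 clusters came from a narrow part of the gene in both lists. All 9 F125A and 20 WT clusters lay in segments 9 and 10 of the gene, within 43.4 kb for F125A and 44.8 kb for WT, that is 7.53% and 7.77% of the gene's length. Among genes of at least 200 kb with about as many clusters, the median span was 62.8% of gene length for 219 genes with 5 to 18 F125A clusters and 75.7% for 198 genes with 10 to 40 WT clusters. A narrower span than that of RBFOX3 was found in 3 of the 219 genes for F125A and in 2 of the 198 genes for WT. The RefSeq promoter table lists 12 starts for RBFOX3, and all 29 clusters lay downstream of every one of them, from 242.7 to 287.5 kb past the last.

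The RBFOX3 clusters fell into 5 stretches separated by more than 1 kb, and 2 of them held most. The stretch at 79138410 to 79139132, 723 nt long, held 3 F125A clusters and 10 WT clusters, which covered 33.9% and 80.9% of it. The stretch at 79174233 to 79174778, 546 nt long, held 5 F125A and 7 WT clusters, covering 59.3% and 89.0%. A single cluster of each list lay at 79181954 to 79182027 for F125A (74 nt) and 79181955 to 79182017 for WT (63 nt). The remaining stretches were WT clusters alone, at 79137217 to 79137293 and at 79160303 to 79160364. All 9 F125A clusters overlapped a WT cluster (100%, interval 66.4 to 100%), and 11 of the 20 WT clusters overlapped an F125A cluster (55.0%, interval 31.5 to 76.9%).

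WT clusters of RBFOX3 were packed end to end. Of 19 neighbouring pairs of WT clusters, 11 touched without a gap (57.9%), as did 1 of 8 neighbouring pairs of F125A clusters (12.5%), against 6.03% of WT and 5.58% of F125A neighbours over all genes. A run of 6 touching WT clusters filled 79138781 to 79139132, and other runs had 4 clusters (79174486 to 79174770) and 3 clusters (79138623 to 79138779). In the stretch at 79138410 to 79139132 the 3 F125A clusters did not touch, whereas 2 F125A clusters touched at 79174689 in the other. The longest RBFOX3 cluster, of 130 nt, was the F125A cluster at 79138843 to 79138972, and lay over the WT clusters of 107 and 86 nt at 79138781 to 79138887 and 79138888 to 79138973. When clusters closer than 50 nt were merged, RBFOX3 had 6 F125A and 6 WT clusters. The unmerged 9 against 20, or 2.22 WT clusters per F125A cluster, were near the 1.95 over all genes. The merged counts were not corrected for the sizes of the lists, so their equality does not show equal recovery. RBFOX2 had 3 such runs of touching WT clusters, each of 3 clusters, and no F125A run of 3 or more.

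**Figure D4:**
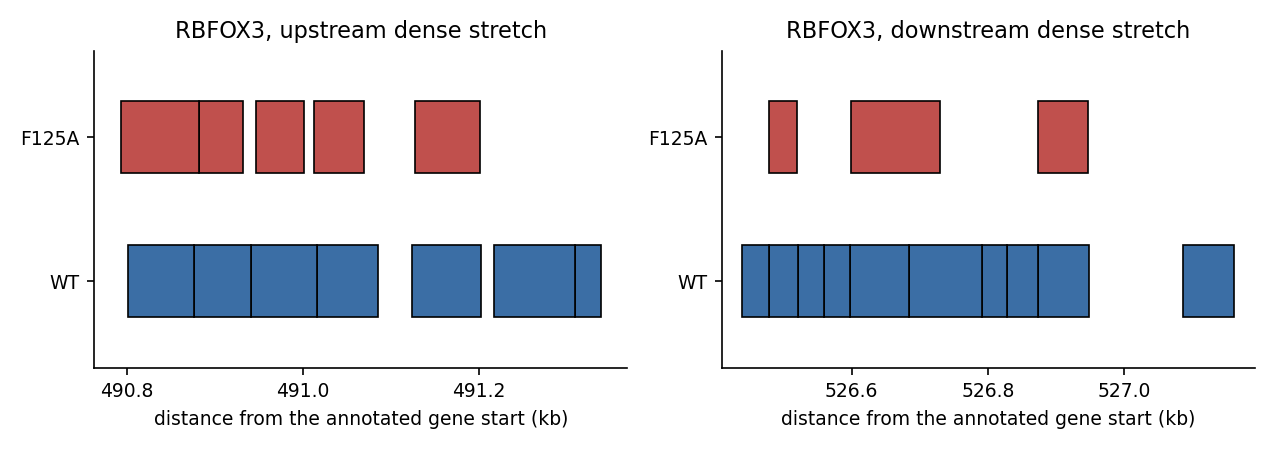
Boxes are RBFOX3 clusters placed by distance from the annotated gene start in kb (x axis), F125A in the upper row and WT in the lower row, in the 546 nt stretch with 5 F125A and 7 WT clusters (left) and the 723 nt stretch with 3 F125A and 10 WT clusters (right). WT boxes mostly touch each other, whereas the F125A boxes in the right plot stand apart.

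RBFOX1 had 3 places in common to both lists and 1 in the WT list alone. At 6613003 to 6613069 an F125A cluster of 67 nt lay inside the WT cluster of 75 nt at 6612997 to 6613071. At 7094745 to 7094804 an F125A cluster of 60 nt lay inside the WT cluster of 77 nt at 7094734 to 7094810. At 7543663 both lists had a cluster with the same start, which ended at 7543744 with F125A (82 nt) and at 7543740 with WT (78 nt). The WT cluster at 7515824 to 7515865 was the shortest of the 7, at 42 nt, and lay 27797 nt from the nearest F125A cluster. The shared places were thus alike in extent, while neighbouring clusters of a list lay up to 481.7 kb apart. The RefSeq promoter table lists 5 starts for RBFOX1; each cluster lay downstream of at least 3 of them, and 3 clusters lay downstream of the last start at 7510120. No promoter window of RBFOX1 or RBFOX3 in that table held a cluster.

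In the 2 lists together, the genes whose counts were most like those of RBFOX2 were ZFAND3, MSI2, ATRX, POLA1 and FAF1. Likeness was the distance between genes in log2(F125A clusters + 1) and log2(WT clusters + 1). ZFAND3 was closest (distance 0.066), with 221 F125A and 426 WT clusters. MSI2, which encodes a Musashi RNA-binding protein, had 211 F125A and 413 WT clusters (0.070), and ATRX, a chromatin remodeller, 211 and 398 (0.074). POLA1, the catalytic subunit of DNA polymerase alpha, had 233 F125A and 392 WT clusters (0.093), and FAF1 had 215 and 434 (0.101). RBFOX2 had the highest share of F125A clusters with a WT partner of these 6 genes, 93.7%, against 87.1% in POLA1, 91.0% in MSI2, 91.5% in ATRX, 92.6% in FAF1 and 92.8% in ZFAND3. The interval of RBFOX2, 89.6 to 96.5%, held all of these but that of POLA1. For RBFOX3, 10 other genes had the same counts of 9 F125A and 20 WT clusters, those nearest to it in length being LINC02210-CRHR1, WNK3, PPME1, BCL2L1 and CHEK1. For RBFOX1, 120 other genes had the same counts of 3 F125A and 4 WT clusters.

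Among genes of the LASR subunits and of other splicing regulator families, none had as many clusters as RBFOX2. Only clusters that named the gene alone were counted. Of the 8 LASR genes 7 had a cluster and 6 were measured, 2 of them 2-fold or more toward F125A (HNRNPH1 and ILF2, chosen after their values were seen) and none toward WT, beside 1.99% and 2.51% of all genes measured, with a median log2 ratio of 0.77. ILF2, with 11 F125A and 9 WT clusters, only just reached the minimum of 20, whereas HNRNPH1 had 40 and 36. Relative to genes of similar length the median of the 6 LASR genes was 0.45. The share of genes at 2-fold or more among genes of like length was not computed. Of 24 genes of the PTBP, MBNL, CELF, QKI, NOVA, ELAVL, KHDRBS and ESRP families 20 had a cluster and 14 were measured. None of the 14 lay 2-fold or more toward F125A and 2 lay 2-fold or more toward WT (PTBP3 and NOVA1, likewise chosen afterwards), with a median of -0.05, beside 0.04 over all 5626 genes. Relative to genes of similar length their median was 0.06. The median density in both lists together was 311.6 clusters per 100 kb for the 6 LASR genes and 66.1 for the 14 others, and RBFOX2 had 216.5. HNRNPC, HNRNPM and MATR3 were denser than RBFOX2, at 413, 258.3 and 358 clusters per 100 kb, in genes of at most 60.3 kb. Of the 4 regulators with most clusters, PTBP2 was denser than RBFOX2, at 392 per 100 kb, while QKI had 191, MBNL1 99.5 and CELF2 37.5. The share of F125A clusters with a WT partner was higher than in RBFOX2 in 1 of the 6 LASR genes, HNRNPM with 94.7%, and in none of the 14 other regulators. These genes were not matched for WT density, and some had few F125A clusters. Of the 4 regulators with most clusters, MBNL1 (92.1%) and CELF2 (90.6%) lay in the RBFOX2 interval of 89.6 to 96.5%. PTBP2 (89.1%) and QKI (88%) lay below it.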

How the data were processed

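RNA that stayed protected from nuclease in FLAG-Rbfox1 pull-downs had been sequenced, and 1 list of intronic clusters for each Rbfox1 group was read. The submitters' processing notes name cutadapt, STAR and hg38 without versions. How libraries were combined, how clusters were called and whether the control entered are not given in the sources used. The deposited lists hold the authors' positions with gene, region and strand, and no other measurement. Starts are printed counted from 1.

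Repeats (4851 F125A and 7029 WT rows) were dropped. Counts per gene cover only clusters whose gene field named that gene alone. Gene places and lengths come from RefSeq's GRCh38.p14 table, which matched 11796 of 11805 gene names. Length classes are 20 bins with about equal numbers of measured genes. Percentiles place a gene among others as a description. The members, the gene lists and the rules of comparison were chosen with earlier results of these data known. Named genes were the members, the 5 nearest in both counts, up to 4 genes of each list with most clusters, and flanking genes. A gene that this rule names is not reported here. Genes of similar length or density (within 1.25-fold) and other clusters given by position were chosen after values were seen. Planned results on exon distance, GCAUG content and protein identity were not computed, for want of a genome, exon positions and proteins, and cluster sequences are not shown. The gene ratio and its interval were tested on simulated data, and overlap and merging on small made cases. The other measures were not tested in this way. Python 3.11.15, pandas 2.3.3 and scipy 1.17.1 were used. Alternatives are given in the closing section.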

Additional observations from a re-analysis of the deposited data

How the results depend on the processing

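Of 110 values of 22 results under 12 alternatives, 101 stayed within the 95% interval of the value reported (for a median length, the interval of the median over clusters), or within 1.5 times for counts, and 9 did not. With clusters closer than 50 nt merged, RBFOX3 had 6 WT clusters, and median lengths were 72 nt (F125A) and 70 nt (WT) in RBFOX2 and 76.5 nt (WT) in RBFOX3. With partners allowed within 50 nt, the WT share with a partner was 59.2% in RBFOX2 and 80.0% in RBFOX3. With 5 added to each count, 36 genes lay 2-fold or more toward WT. With a minimum of 10 clusters, 273 genes lay 2-fold or more toward F125A and 263 toward WT. The log2 ratio of RBFOX2 ranged from 0.05 to 0.15 over its alternatives, and relative to genes of similar length from 0.33 to 0.46. Merged, RBFOX3 had too few clusters for a ratio. Leaving out the 6807 clusters identical in both lists, 4 of them in RBFOX2, was chosen after seeing the data. Alternatives on exons and on GCAUG were not run. No paired analysis was possible because each group has 1 list, and for the same reason no library could be left out. Depth is unknown, so a place absent from a list is not shown to lack RNA.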

Other observations

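RBFOX2 lies between genes of the APOL family, which encode apolipoprotein L proteins. Clusters of flanking genes were counted only where they named the gene alone. The 3 protein-coding genes nearest on the side of lower coordinates, APOL5, APOL6 and MB (myoglobin), had no such cluster in either list. On the other side APOL3 had none, APOL4 had 1 F125A and no WT cluster, and APOL2 had 6 F125A and 4 WT clusters. These genes are 13.7 to 25.9 kb long, against 290 kb for RBFOX2, so their counts are not on one scale with its 221 F125A and 407 WT clusters.

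Most genes flanking RBFOX3 had clusters that named them alone, and the counts below are of such clusters. ENGASE, an endoglycosidase gene 0.746 kb away, had 6 F125A and 10 WT clusters, C1QTNF1 had 3 and 17, and CANT1 had 7 and 9. On the other side ENPP7 had none, CBX2, a Polycomb protein gene, had 6 F125A and 8 WT clusters, and CBX8 had 1 of each. These genes are 4.95 to 26.9 kb long, against 576 kb for RBFOX3. Around RBFOX1, C16orf89 and TMEM114 had no cluster, EEF2KMT had 1 of each, ALG1 had 2 F125A and 1 WT, METTL22 had 12 and 13, and ABAT, 4-aminobutyrate aminotransferase, had 6 F125A and 17 WT clusters.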
